A study of Homo sapiens with 12 samples.

Results

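The comparison described here set HEK293T cells that expressed FLAG-NRF1 or FLAG-NRF2 against HEK293T cells that carried empty vector or FLAG-NRF3. It was 1 contrast, the mean of the NRF1 and NRF2 libraries minus the mean of the NRF3 and empty vector libraries, in a model of 4 groups, and it used 6 of the 12 libraries of the series on each side. The groups were joined in this way on the basis of earlier results of these data, in which NRF3 had few differences from empty vector, so the pooled values, the single comparisons that make them up and NRF3 against empty vector were chosen by the readout and are given as a description. The test that the pooling does not use is NRF2 against NRF1. HEK293T is a human embryonic kidney line, and each group had 3 libraries that the labels describe as independent experiments. Cells received the plasmid with FuGENE and total RNA was taken after 24 h. The NRF1 and NRF3 constructs were codon-optimized and lacked the N-terminal sequence that holds the native proteins in the endoplasmic reticulum (ER), the NRF2 construct carried T80D, a change reported to inhibit its binding to KEAP1, and the controls carried the plasmid without a transgene. All 4 groups were therefore transfected, and the constructs are modified proteins from a strong expression vector, not the native factors at their own levels.

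NRF1, NRF2 and NRF3 are Cap'n'collar basic leucine zipper factors. They pair with small MAF proteins and bind antioxidant response elements (AREs) near genes of glutathione synthesis, heme and iron handling, NADPH supply and proteasome assembly. NRF2 is best known for the oxidative stress response and is held in check by KEAP1, NRF1 for the renewal of proteasome subunits, and NRF3 is the least described of them.

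Total counts per library were 13452524 to 14014316. The HEK293T genes of a short marker list (VIM, KRT8, KRT18, PAX2, LHX1, NEFM and NEFL) had counts in every library. Of 13 markers of blood, liver, endothelial, fibroblast and pigment cells, the highest was COL1A1 at 16.0 CPM (counts scaled to library size), and TYR had no count in any library. NFE2L2, the gene of NRF2, was 9319, 10350 and 11420 CPM in NRF2 libraries, transgene reads included, against 88.7 to 99.6 CPM in the other 9. NFE2L1 and NFE2L3 did not separate the libraries (81.0 to 123.4 and 32.3 to 41.5 CPM), and their transgenes were codon-optimized, so these rows do not check those labels. NRF3 replicates 2 and 3 stood apart, in opposite directions. The median SD of log2 CPM between replicates was 0.187 for NRF3, against 0.105 for NRF1, 0.122 for NRF2 and 0.0884 for empty vector. The SD of the deviations from the group mean was 0.207 for NRF3 replicate 2 and 0.192 for NRF3 replicate 3. In the other libraries it was 0.0992 to 0.139. The deviations of NRF3 replicate 2 correlated across genes with transcript length (r = 0.54), and those of NRF3 replicate 3 had r = -0.38. NRF2 replicate 1 shared part of the deviation of NRF3 replicate 2 (r = 0.45 with length, 0.61 with that library). NRF2 replicate 2 had r = 0.52 with NRF3 replicate 3. These are correlations over genes of 2 libraries and so a description only. Counts over all genes are also given without NRF3 replicate 2, to show how far they depend on it, and not as better counts.

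On the mean of NRF1 and NRF2, cells had less mitochondrially encoded RNA and less RNA of most HOX genes than with NRF3 or empty vector. They also had less of 182 of 1248 long noncoding RNAs (14.6%, with 16 higher) and more RNA of HMOX1 and GCLM. These are pooled calls. NRF1 alone gave 13 HOX genes and 226 genes of all kinds lower, against 27 and 954 for NRF2 alone. Of 15135 genes tested, 736 were called higher (4.86% of all tested) and 1081 lower (7.14%) by edgeR's quasi-likelihood test at an adjusted p under 0.05 (Benjamini-Hochberg), the rule for every call below. Without NRF3 replicate 2 the counts were 1905 higher and 2000 lower, of which 731 and 1067 were among the calls made with it. Without NRF3 replicate 3 they were 768 higher and 1117 lower. The genes called lower moved further (median log2 fold change -0.44) than those called higher (0.27), and 69 of them moved by more than 1 on the log2 scale, against 40 called higher. All 6 libraries of NRF1 and NRF2 lay below the other 6 for 402 genes (2.66% of all tested), 378 of them called, and above them for 220 genes (1.45%), 175 of them called. These counts come from the contrast that was chosen on earlier results, and nothing more is read from them.

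How far NRF1 and NRF2 acted alike was tested by NRF2 minus NRF1. Here 158 genes were higher (1.04% of all tested) and 31 lower (0.205%) with NRF2. Without NRF3 replicate 2 they were 263 and 67, and over the 12 fits without 1 library they ranged from 117 (without NRF1 replicate 2) to 263 higher and from 15 (without NRF1 replicate 1) to 68 lower (without NRF3 replicate 3). Of the 1081 genes called lower in the pooled comparison, 26 (2.41%) differed between NRF2 and NRF1, 24 of them lower with NRF2. Of the 736 called higher, 112 (15.2%) differed, 110 of them higher with NRF2. The share over all genes was 1.25%. A gene moved by NRF2 alone can be called in the pooled comparison, and it then tends to differ between the factors. NRF2 alone gave 851 genes higher and 954 lower against the other 6 libraries, and NRF1 alone 36 and 226. Part of the excess over 1.25%, and its direction, therefore comes from how the genes were selected. The median log2 fold change of the genes called lower was -0.50 for NRF2 and -0.37 for NRF1 against the other 6 libraries, and that of the genes called higher was 0.34 for NRF2 and 0.20 for NRF1. A difference that misses the threshold does not show that the factors acted alike: the median 95% interval of NRF2 minus NRF1 reached 0.285 to each side among genes called lower and 0.191 among those called higher.

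The mitochondrial genome encodes 13 subunits of the respiratory chain and ATP synthase, and all 13 of their messenger RNAs were called lower with NRF1 and NRF2, with log2 fold changes of -0.83 to -0.70 (median -0.80, against -0.0026 over all genes tested). Over all genes tested 7.14% were called lower. COX1, a core subunit of cytochrome c oxidase, was 7173, 5268 and 5002 CPM with NRF1 and 4944, 5820 and 6511 CPM with NRF2, against 11580, 9557 and 8752 CPM with NRF3 and 10490, 9291 and 11280 CPM with empty vector. Every NRF1 and NRF2 library was below every other library. The fold change of COX1 was -0.81 ± 0.10 (log2 fold change ± SE, the form used below), and NRF2 minus NRF1 was -0.01 (95% interval -0.32 to 0.29, adjusted p = 0.988, edgeR). CYTB, the cytochrome b of complex III, was 3277, 2488 and 2252 CPM in NRF1 libraries and 2203, 2625 and 3023 CPM in NRF2 libraries, against 5236, 4350 and 4100 CPM in NRF3 libraries and 4701, 4241 and 5011 CPM in empty vector libraries, and its pooled fold change was -0.80 ± 0.10. ND2, a subunit of complex I, was 3080, 2261 and 2093 CPM with NRF1 and 1993, 2270 and 2846 CPM with NRF2, against 5142, 4064 and 4042 CPM with NRF3 and 4260, 3731 and 4582 CPM with empty vector, with a pooled fold change of -0.83 ± 0.11. ND3 had the smallest change of the 13 (-0.70 ± 0.09), and its groups did not overlap either (1137, 959 and 859 CPM in NRF1 libraries and 759.5, 871 and 946 CPM in NRF2 libraries, against 1830, 1327 and 1345 CPM in NRF3 libraries and 1514, 1372 and 1576 CPM in empty vector libraries). The symbols carry no MT prefix in the deposited table, and COX1 and COX2 are the mitochondrial genes, since the cyclooxygenase genes have rows of their own as PTGS1 and PTGS2.

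The summed share of all counts that fell on the 13 messenger RNAs was 4.58%, 3.38% and 3.11% in NRF1 libraries and 3.08%, 3.58% and 4.11% in NRF2 libraries, against 7.16%, 5.98% and 5.47% in NRF3 libraries and 6.42%, 5.65% and 6.84% in empty vector libraries. NRF1 replicate 1 had the highest share on its side and NRF3 replicate 3 the lowest on the other, and they did not meet. The median change of the list was -0.81 for NRF2 and -0.78 for NRF1, and -0.0042 for NRF3 minus empty vector. None of the 13 differed between NRF2 and NRF1. NRF2 taken alone gave 13 calls and NRF1 alone 12. In a bulk sample a lower level in every cell and fewer cells with a high level cannot be told apart.

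The same held for the other products of that genome, a list added after the data were seen. Of 21 mitochondrial transfer RNAs tested, 20 were called lower (median -0.82), and TRNP was not (log2 fold change -0.36, SE 0.12). TRNY, for tyrosine, was 22.6, 18.0 and 15.6 CPM with NRF1 and 17.6, 20.1 and 20.7 CPM with NRF2, against 38.9, 28.0 and 34.9 CPM with NRF3 and 31.1, 30.9 and 33.8 CPM with empty vector, which left a gap between the sides, and NRF2 minus NRF1 was 0.05 (95% interval -0.24 to 0.34, adjusted p = 0.944, edgeR). TRNS1, for serine, was 12.3, 16.3 and 15.1 CPM in NRF1 libraries and 7.001, 8.92 and 10.9 CPM in NRF2 libraries, against 30.1, 18.5 and 25.1 CPM in NRF3 libraries and 22.1, 22.3 and 21.9 CPM in empty vector libraries. All of its NRF2 values were below its NRF1 values, a difference that did not pass after adjustment (NRF2 minus NRF1 -0.71, 95% interval -1.09 to -0.32, adjusted p = 0.0795, edgeR). TRNL2, TRNI, TRNR and TRNG had pooled fold changes of -1.05, -0.95, -0.91 and -0.89. Both ribosomal RNAs were called lower, RNR2 (-0.70 ± 0.09) and RNR1 (-0.55 ± 0.08). Reads of longer unprocessed transcripts that span the transfer RNAs cannot be told apart from theirs. Nuclear genes of the same complexes had few calls. Of 79 nuclear-encoded respiratory chain subunits 1 was called lower (1.27%, beside 7.14% over all genes), ATP5S (-0.31 ± 0.08), and the list median was -0.10. Its call was lost in 5 of the 12 fits without 1 library.

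**Figure D1:**
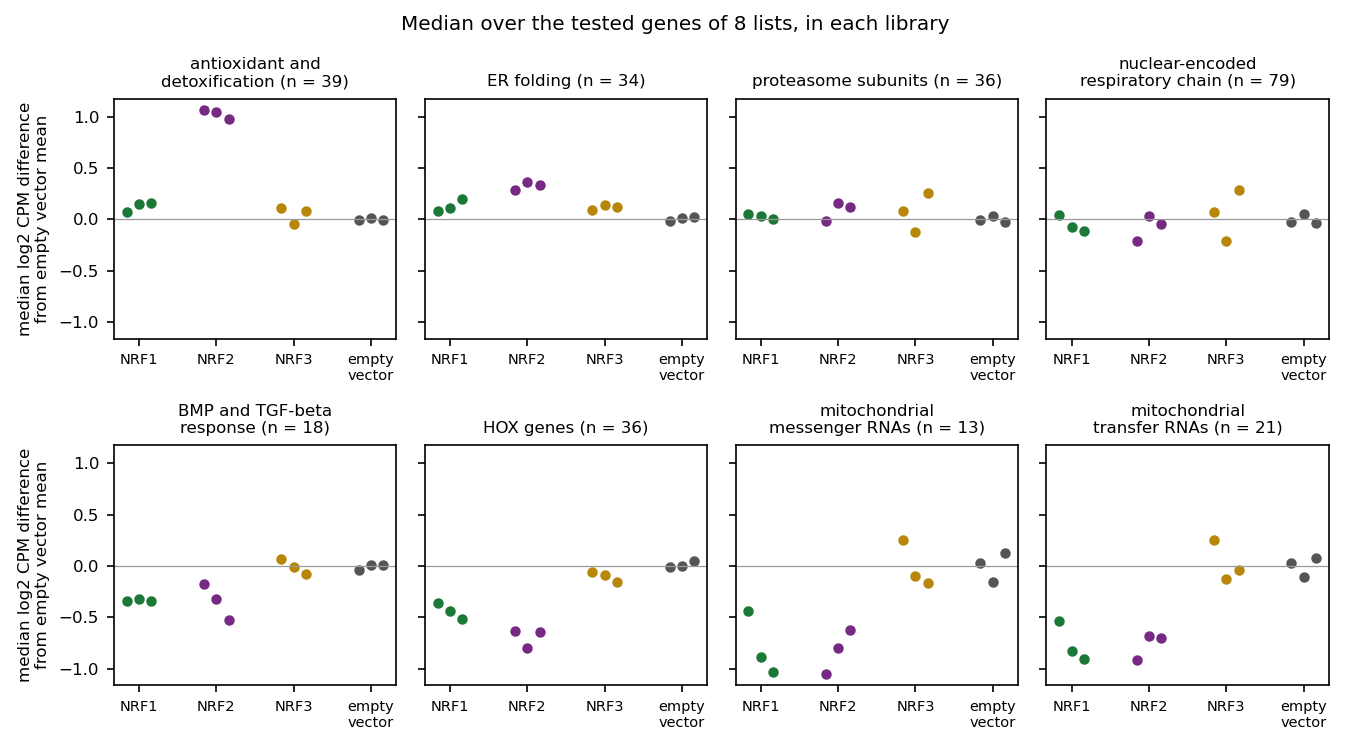
Median over the tested genes of 8 lists of the difference in log2 CPM from the empty vector mean (y axis), in each of the 12 libraries (points, by group on the x axis). The mitochondrial and HOX lists sit below 0 in all 6 NRF1 and NRF2 libraries, from -1.05 to -0.36, while the antioxidant list is at 0.98 to 1.07 in NRF2 libraries and at 0.07 to 0.16 in NRF1 libraries.

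HOX genes set position along the body axis and stay expressed in this kidney line. Of 36 HOX genes tested, 27 were called lower and none higher, with a median of -0.50 and a range of -1.11 to -0.02. The share called lower was 75.0%, beside 7.14% over all genes. The calls lay in all 4 clusters, in 9 of 11 genes of HOXA, 7 of 9 of HOXB, 5 of 8 of HOXC and 6 of 8 of HOXD, with cluster medians of -0.50, -0.51, -0.41 and -0.53. HOXD9 changed most, at 10.9, 9.52 and 9.01 CPM with NRF1 and 5.67, 6.33 and 7.23 CPM with NRF2, against 16.6, 15.5 and 14.7 CPM with NRF3 and 18.4, 18.5 and 19.8 CPM with empty vector. Its pooled fold change was -1.11 ± 0.08, and the fall was deeper with NRF2 (NRF2 minus NRF1 -0.61, 95% interval -0.87 to -0.35, adjusted p = 0.0143, edgeR). HOXA10 was 148, 149.5 and 148 CPM in NRF1 libraries and 112, 103 and 108 CPM in NRF2 libraries, against 175, 169 and 161 CPM in NRF3 libraries and 178, 177 and 175 CPM in empty vector libraries, again with the lowest values in NRF2 libraries (NRF2 minus NRF1 -0.46, 95% interval -0.59 to -0.33, adjusted p = 0.000241, edgeR). HOXB6 was 28.1, 26.1 and 25.7 CPM with NRF1 and 26.6, 24.3 and 25.7 CPM with NRF2, against 39.0, 39.4 and 36.0 CPM with NRF3 and 41.1, 41.9 and 38.3 CPM with empty vector, where both factors had like values and NRF2 minus NRF1 was -0.06 (95% interval -0.23 to 0.11, adjusted p = 0.861, edgeR). Over the list 6 genes were lower with NRF2 than with NRF1 and none was higher, and the median was -0.65 for NRF2 and -0.35 for NRF1. NRF1 taken alone gave 13 calls and the unequal variance test 16.

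Transcripts from between and opposite the HOX genes went the same way. Of 13 tested, 6 were called lower, among them HOTAIR (-0.53 ± 0.11), the HOXC transcript known for its action on HOXD genes, HOTAIRM1 of HOXA (-0.66 ± 0.09) and HOXB-AS3 (-0.70 ± 0.08). HOXB-AS3 was 11.9, 12.7 and 12.4 CPM in NRF1 libraries and 12.2, 10.5 and 11.6 CPM in NRF2 libraries, against 20.2, 15.0 and 19.5 CPM in NRF3 libraries and 19.4, 20.7 and 21.1 CPM in empty vector libraries, with no overlap. The sources do not say that counting used the strand, so reads of these RNAs and of the HOX genes they overlap cannot be told apart. MEIS, PBX and PKNOX proteins bind DNA together with HOX proteins, and 4 of 9 were called lower, MEIS2 (-0.43 ± 0.07), PBX3 (-0.39 ± 0.07), MEIS1 (-0.39 ± 0.08) and PKNOX1 (-0.31), all without overlap. Regulators that maintain HOX expression gave no call, with 0 of 30 Polycomb and Trithorax genes called in either direction and a median of 0.03. Over all genes 7.14% were called lower and 4.86% higher. Of 15 kidney development factors 6 were called lower and none higher (median -0.23), among them FOXC1 (-0.39 ± 0.07) and EYA4 (-0.27 ± 0.05), the last without overlap. NRF3 replicate 3 was as low for this list (median -0.34 from the empty vector mean) as the NRF1 and NRF2 libraries (-0.38 to -0.24), and the other NRF3 libraries were at -0.03 and 0.03. FOXC1 was lower with NRF2 than with NRF1 (NRF2 minus NRF1 -0.54, adjusted p = 0.0101, edgeR).

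Of 18 response genes of bone morphogenetic protein (BMP) and TGF-beta signalling 8 were called lower and none higher (median -0.24), and 10 did not pass. The share called lower was 44.4%, beside 7.14% over all genes. SMAD6, an inhibitory SMAD that BMP signals induce, was 53.4, 51.6 and 51.8 CPM with NRF1 and 43.7, 37.3 and 40.3 CPM with NRF2, against 76.5, 76.0 and 65.0 CPM with NRF3 and 78.0, 81.7 and 82.4 CPM with empty vector. Its pooled fold change was -0.73 ± 0.06, the largest of the list, and NRF2 went lower than NRF1 (NRF2 minus NRF1 -0.37, adjusted p = 0.0297, edgeR). ID1, ID2, ID3 and ID4, inhibitors of helix-loop-helix factors and direct BMP targets, had pooled fold changes of -0.52, -0.56, -0.49 and -0.24. ID2 was 79.1, 72.1 and 75.5 CPM in NRF1 libraries and 67.6, 66.6 and 69.7 CPM in NRF2 libraries, against 109, 90.0 and 118 CPM in NRF3 libraries and 102, 107 and 106 CPM in empty vector libraries, below every other library on the NRF1 and NRF2 side, and NRF2 minus NRF1 was -0.15 (95% interval -0.34 to 0.03, adjusted p = 0.571, edgeR). The signalling inhibitors NOG (-0.55) and BAMBI (-0.48) and the ligand BMP2 (-0.35) were also called. BMP2 was 33.1, 33.3 and 30.8 CPM in NRF1 libraries and 22.5, 20.4 and 23.2 CPM in NRF2 libraries, against 32.6 to 37.2 CPM in the other 6, so it was low only in NRF2 libraries, and it differed between the factors (NRF2 minus NRF1 -0.56, adjusted p = 0.00102, edgeR).

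In the list of axon guidance ligands and receptors, molecules of neural and vascular patterning, 11 of 60 genes were called lower and 3 higher (median -0.07). These are 18.3% and 5.00% of the list, beside 7.14% and 4.86% over all genes, so the share called higher was near that of all genes. The 3 genes called higher were EPHB2 (0.37), EPHA8 (0.33) and EPHA2 (0.32). SEMA3C, a secreted semaphorin, was 6.67, 5.59 and 5.60 CPM with NRF1 and 6.51, 6.12 and 5.71 CPM with NRF2, against 8.84, 11.6 and 10.1 CPM with NRF3 and 11.98, 11.9 and 11.3 CPM with empty vector. The factors did not separate (NRF2 minus NRF1 0.04, 95% interval -0.25 to 0.33, adjusted p = 0.961, edgeR), and the sides had a clear gap. NRP1, a receptor for class 3 semaphorins and VEGF, was 26.2, 28.7 and 30.0 CPM in NRF1 libraries and 24.2, 24.6 and 23.9 CPM in NRF2 libraries, against 42.4, 43.2 and 38.6 CPM in NRF3 libraries and 41.2, 38.4 and 41.1 CPM in empty vector libraries, with -0.64 ± 0.06. EPHA7, an ephrin receptor, had -0.54 ± 0.06, and EPHA4, ROBO1, SLIT2 and UNC5C had -0.51, -0.45, -0.41 and -0.68. FLRT3, a membrane protein that binds UNC5 and latrophilin receptors, was 9.57, 10.5 and 9.23 CPM with NRF1 and 9.87, 10.4 and 9.32 CPM with NRF2, against 16.7, 18.5 and 15.3 CPM with NRF3 and 18.6, 19.1 and 15.5 CPM with empty vector, and NRF2 minus NRF1 was 0.01 (95% interval -0.24 to 0.27, adjusted p = 0.985, edgeR). ADGRL2, a latrophilin, was called lower in each of the 4 single comparisons (pooled -0.28). The COUP transcription factors were also called lower, NR2F1 (-0.77 ± 0.09) and NR2F2 (-0.45 ± 0.06). They were 2 of 5 nuclear receptors called lower, and another 5 of 37 were called higher, led by NR0B1 (0.65 ± 0.13), which was 7.27 to 9.54 CPM in NRF2 libraries and 2.93 to 5.01 CPM in all others. Each direction held 13.5% of the nuclear receptors tested, beside 7.14% lower and 4.86% higher over all genes.

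Further signalling lists had fewer calls in number than the axon guidance list, but not always a smaller share. Over all genes 7.14% were called lower and 4.86% higher. The shares called lower and higher were 17.1% and 2.86% for Wnt genes and 15.4% and 7.69% for Hedgehog genes. They were 27.6% and 6.90% for AP-1 and immediate early genes and 15.8% and 2.63% for collagens and laminins. For cadherins and protocadherins they were 8.82% and 2.94%, near those of all genes. Of 35 Wnt genes 6 were called lower and 1 higher, with LGR5 (-0.43 ± 0.07), FZD10 (-0.58 ± 0.11) and FZD8 (-0.39 ± 0.09) among the lower ones, none of them without overlap. Of 13 Hedgehog genes 2 were called lower and 1 higher. GAS1, a Hedgehog co-receptor, was 17.0, 18.7 and 16.7 CPM in NRF1 libraries and 14.1, 13.5 and 12.4 CPM in NRF2 libraries, against 27.7, 27.9 and 21.1 CPM in NRF3 libraries and 22.4, 23.1 and 21.5 CPM in empty vector libraries, with -0.65 ± 0.08. GLI3, a transcription factor of the pathway, had -0.33 ± 0.10 and its call was lost in 8 of the 12 fits without 1 library. SUFU, an inhibitor of GLI proteins, was called higher (0.32 ± 0.08), except without empty vector replicate 3 or NRF1 replicate 3. Of 29 AP-1 subunits and immediate early genes 8 were called lower and 2 higher. JUN was 119, 135 and 126 CPM with NRF1 and 130.3, 112 and 112 CPM with NRF2, against 188, 205 and 141 CPM with NRF3 and 169.5, 185 and 178 CPM with empty vector, and KLF6 had -0.30 ± 0.05, while FOSL1, an AP-1 subunit, was high in NRF2 libraries (5.40 to 8.82 CPM, against 1.36 to 2.83 CPM in the other 9). Of 38 collagens and laminins 6 were lower and 1 higher, with COL11A2 (-1.17 ± 0.23), LAMA4 (-0.45 ± 0.08) and LAMA3 (-0.33 ± 0.08) lower and LAMB3 higher (1.13), and of 34 cadherins and protocadherins 3 were lower and 1 higher, with PCDH9 (-0.34 ± 0.05) and PCDH7 (-0.31 ± 0.06) lower and PCDHGC3 (0.25 ± 0.07) higher. The call of PCDHGC3 was lost in 8 of the 12 fits without 1 library.

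Noncoding RNAs made up more of the genes called lower than of all genes tested. By RefSeq type, 182 of 1248 long noncoding RNAs were called lower and 16 higher, so that they were 16.8% of the genes called lower and 8.25% of the genes tested. The shares of this type called lower and higher were 14.6% and 1.28%, beside 7.14% and 4.86% over all genes. Small nucleolar and Cajal body RNAs, which guide the modification of ribosomal and spliceosomal RNA, gave 18 calls lower of 63 (28.6%) and none higher (median -0.63). SNORA4 was 1.01, 0.799 and 0.727 CPM in NRF1 libraries and 0.630, 0.432 and 0.650 CPM in NRF2 libraries, against 1.66, 1.60 and 1.74 CPM in NRF3 libraries and 1.98, 1.69 and 2.21 CPM in empty vector libraries, and SNORD22 had -1.28 ± 0.19. Their counts were low, the count of calls was 29 without NRF3 replicate 2 and 1 among genes that averaged 50 counts or more, and reads from the introns or exons of their host genes were not told apart from them. MIR17HG, the host transcript of the miR-17 cluster, was 42.0, 30.5 and 19.8 CPM with NRF1 and 16.8, 24.7 and 27.0 CPM with NRF2, against 64.2, 43.6 and 55.6 CPM with NRF3 and 55.9, 44.1 and 53.4 CPM with empty vector. It spread widely within groups and still did not overlap between the sides (-0.99 ± 0.17). MALAT1, a nuclear-retained RNA named after its values were seen, was 74.2, 78.4 and 63.3 CPM in NRF1 libraries and 51.5, 57.6 and 70.1 CPM in NRF2 libraries, against 157, 88.9 and 102 CPM in NRF3 libraries and 118, 102 and 126 CPM in empty vector libraries. The 12 lowest fold changes among genes called without overlap that averaged 50 counts or more were led by LOC101928230 (-1.22 ± 0.13) and HOXD9, and held 4 mitochondrial transfer RNAs, MIR17HG and LOC100130417 (-0.98 ± 0.12), CHKB-CPT1B (-0.94 ± 0.11), HOXB5 (-0.93 ± 0.14), LYPD1 (-0.87 ± 0.13) and LOC105378936 (-0.86 ± 0.13). CHKB-CPT1B is a readthrough gene, so its reads are shared with those of its neighbours.

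HMOX1, the heme oxygenase that opens the porphyrin ring, was the only protein-coding gene besides CNN2 that was called higher in each of the 4 single comparisons of NRF1 or NRF2 with NRF3 or empty vector. It was 474, 582 and 616 CPM in NRF1 libraries and 1355, 1465 and 1369 CPM in NRF2 libraries, against 351, 378 and 302 CPM in NRF3 libraries and 57.7, 65.3 and 63.0 CPM in empty vector libraries. Each group had its own range, and NRF3 was higher than empty vector too (log2 fold change 2.47), so the pooled value of 2.60 ± 0.07 averages over a reference side with 2 levels. NRF2 minus NRF1 was 1.32 (95% interval 1.12 to 1.53, adjusted p = 2.08e-07, edgeR). GCLM, the modifier subunit of glutamate-cysteine ligase in glutathione synthesis, was 65.9, 69.4 and 79.7 CPM with NRF1 and 265, 270.4 and 249.7 CPM with NRF2, against 55.1, 54.6 and 57.8 CPM with NRF3 and 38.0, 33.0 and 40.1 CPM with empty vector. Its order was that of HMOX1, with NRF3 above empty vector by 0.59 on the log2 scale. Between the factors NRF2 minus NRF1 was 1.87 (95% interval 1.69 to 2.05, adjusted p = 2.96e-10, edgeR). NRF1 minus NRF3 was 0.36 for GCLM and was not called. LINC00346, a long noncoding RNA with few reads, was 1.67, 2.03 and 2.04 CPM in NRF1 libraries and 5.53, 6.69 and 5.42 CPM in NRF2 libraries, against 0.983, 0.7999 and 0.680 CPM in NRF3 libraries and 0.514, 0.439 and 0.590 CPM in empty vector libraries, with 2.35 ± 0.17, and NRF1 minus NRF3 was 1.21.

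Upstream sequences of 4 genes are shown because these factors are known to act through ARE sites, and they were picked because they hold a match. Of the 113 genes chosen by rule, 75 had a RefSeq window (GRCh38.p14) of 250 bases before the start site, and the ARE core TGACNNNGC, searched on both strands, was in 9 of the 75. The windows of NQO1, SRXN1, OSGIN1, SQSTM1, KEAP1 and ALAS1 held no match. Sequence outside these 250 bases was not searched, so a site there would not be seen. The paper used a reporter plasmid that carried the ARE of NQO1. The core was in 11.0% of all 27305 windows, in 12.1% of those of the genes tested and in 15.2% of the 594 windows found for genes called higher. Within these it was in 24.2% of 91 windows of genes that differed between NRF2 and NRF1 and in 13.5% of 503 windows of genes that did not pass that test, shares that were not compared by a test. Windows were found for 69.8% of the genes called lower, under the 80% set for such a share, so none is given for them. A match is a description of letters and not a bound site. GCLM is on chromosome 1 (minus strand, chr1:93909431-93909680), LINC00346 on chromosome 13 (current RefSeq symbol PRECSIT, minus strand, chr13:110870309-110870558), TXNRD1 on chromosome 12 (plus strand, chr12:104215529-104215778) and SMAD6, a gene called lower, on chromosome 15 (plus strand, chr15:66701986-66702235). Each is written 5′ to 3′ on the strand of its gene, with matches to the core or to its reverse complement GCNNNGTCA in capitals.
GCLM: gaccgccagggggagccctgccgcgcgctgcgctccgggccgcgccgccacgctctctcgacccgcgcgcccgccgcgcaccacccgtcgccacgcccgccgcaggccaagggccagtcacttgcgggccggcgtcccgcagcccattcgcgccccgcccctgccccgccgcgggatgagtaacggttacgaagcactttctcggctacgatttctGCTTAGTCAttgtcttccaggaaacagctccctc
LINC00346: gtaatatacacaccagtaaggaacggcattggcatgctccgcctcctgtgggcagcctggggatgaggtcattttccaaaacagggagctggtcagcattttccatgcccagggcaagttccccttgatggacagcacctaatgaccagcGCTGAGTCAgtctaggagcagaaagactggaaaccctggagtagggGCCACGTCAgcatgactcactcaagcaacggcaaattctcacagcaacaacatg
TXNRD1: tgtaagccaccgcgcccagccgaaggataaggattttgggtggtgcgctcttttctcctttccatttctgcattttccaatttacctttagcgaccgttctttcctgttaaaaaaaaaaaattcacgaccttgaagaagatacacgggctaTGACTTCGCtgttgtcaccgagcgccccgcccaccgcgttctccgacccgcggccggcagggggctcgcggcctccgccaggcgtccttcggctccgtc
SMAD6: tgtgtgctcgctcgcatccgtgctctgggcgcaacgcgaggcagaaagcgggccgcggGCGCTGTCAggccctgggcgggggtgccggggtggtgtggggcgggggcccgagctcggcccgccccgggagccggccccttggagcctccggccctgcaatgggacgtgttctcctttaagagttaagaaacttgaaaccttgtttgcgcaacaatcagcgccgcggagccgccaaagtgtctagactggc
The match of GCLM began 34 bases before its start site, those of LINC00346 100 and 54 bases before, that of TXNRD1 99 bases before and that of SMAD6 192 bases before.

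Among genes called higher without overlap were further long noncoding RNAs and genes of heme, glutathione and KEAP1 biology. MIR4435-2HG was 10.4, 11.6 and 11.0 CPM with NRF1 and 32.9, 31.6 and 32.5 CPM with NRF2, against 6.80, 6.62 and 6.96 CPM with NRF3 and 7.79, 7.76 and 8.11 CPM with empty vector, so that NRF1 was a little and NRF2 far above the rest (NRF2 minus NRF1 1.56, adjusted p = 5.37e-09, edgeR). LINC00152, a transcript that is very similar to MIR4435-2HG in sequence, was 5.95, 7.19 and 6.40 CPM in NRF1 libraries and 14.6, 16.4 and 15.1 CPM in NRF2 libraries, against 5.29, 3.71 and 4.99 CPM in NRF3 libraries and 4.78, 4.98 and 3.91 CPM in empty vector libraries, and reads of this pair may be split between their rows. HTRA3, a secreted serine protease, had 1.05 ± 0.09, with 4.79 to 4.87 CPM in NRF1 libraries and 13.1 to 13.7 CPM in NRF2 libraries, against 3.31 to 4.73 CPM in the other 6. ALAS1, the first enzyme of heme synthesis, was 126, 132 and 135 CPM with NRF1 and 196, 192 and 209 CPM with NRF2, against 109.9, 113 and 100 CPM with NRF3 and 96.8, 95.1 and 100.2 CPM with empty vector. GPX3, a secreted glutathione peroxidase, and GPAT3, a glycerolipid acyltransferase, had 0.67 ± 0.07 and 0.65 ± 0.09. KEAP1, which targets NRF2 for degradation, was 99.1, 100.2 and 109 CPM in NRF1 libraries and 174, 164 and 169 CPM in NRF2 libraries, against 91.8, 88.9 and 83.8 CPM in NRF3 libraries and 89.2, 84.7 and 85.7 CPM in empty vector libraries, and SQSTM1, an autophagy receptor that binds KEAP1, was 178, 191 and 195 CPM with NRF1 and 422, 415 and 409 CPM with NRF2, against 168, 172 and 152 CPM with NRF3 and 172, 175 and 172 CPM with empty vector. For all of these genes the sides did not overlap, and NRF2 exceeded NRF1, with adjusted p-values of NRF2 minus NRF1 from 5.37e-09 for MIR4435-2HG to 0.0107 for GPAT3 (edgeR). CNN2, a calponin of the actin cytoskeleton, and TSPAN11, a tetraspanin, did not show that order. CNN2 was 28.3, 33.0 and 34.1 CPM in NRF1 libraries and 33.9, 32.7 and 36.0 CPM in NRF2 libraries, against 25.1, 20.8 and 20.9 CPM in NRF3 libraries and 20.6, 22.1 and 24.2 CPM in empty vector libraries, and NRF2 minus NRF1 was 0.10 (95% interval -0.10 to 0.31, adjusted p = 0.777, edgeR). TSPAN11 had 0.57 ± 0.12, and NRF2 minus NRF1 was 0.10 (95% interval -0.23 to 0.43, adjusted p = 0.881, edgeR).

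**Figure D2:**
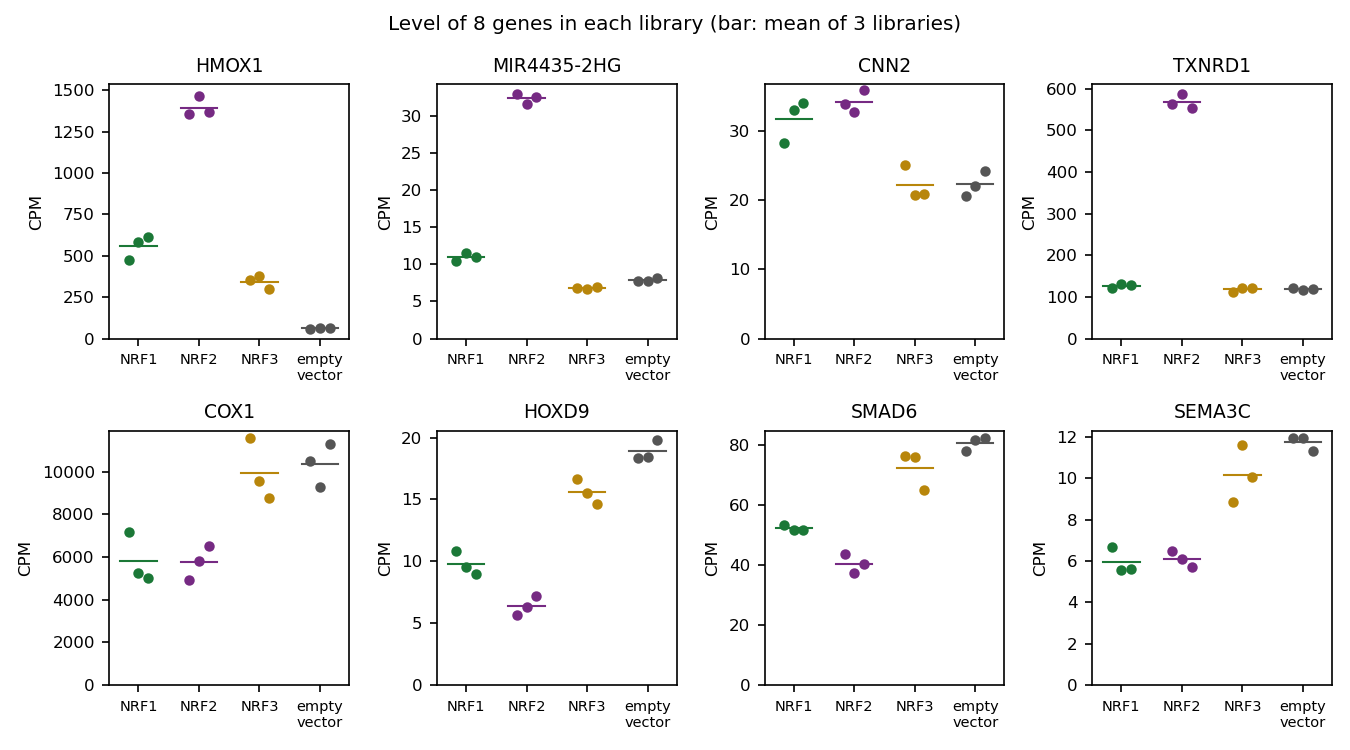
CPM (y axis, linear from 0) of 8 genes in each of the 12 libraries (points) by group (x axis), with the mean of 3 libraries as a bar. HMOX1 has 4 separate levels, TXNRD1 is high in NRF2 libraries alone (553 to 586 CPM), and COX1, HOXD9, SMAD6 and SEMA3C are lower in all 6 NRF1 and NRF2 libraries.

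In the antioxidant and detoxification list most pooled calls came from NRF2 libraries. Of 39 genes of the list 32 were called higher and none lower (median 0.52), yet 29 differed between NRF2 and NRF1, all higher with NRF2, and the median was 0.98 for NRF2 and 0.10 for NRF1. The share called higher was 82.1%, beside 4.86% over all genes. NRF2 taken alone gave 34 calls, NRF1 alone 2, and the unequal variance test on the 6 and 6 libraries gave 1. The sides did not overlap for 6 of the 39 genes, beside 220 of all 15135 genes (1.45%) that lay wholly above. TXNRD1, the cytosolic thioredoxin reductase, was 121, 130.1 and 128 CPM with NRF1 and 563, 586 and 553 CPM with NRF2, against 112, 120.3 and 121 CPM with NRF3 and 121, 116 and 119 CPM with empty vector, so that its pooled value of 1.18 ± 0.04 came from NRF2 libraries (NRF2 minus NRF1 2.16, adjusted p = 9.57e-13, edgeR). NQO1, a quinone reductase, was 7.47, 6.54 and 8.21 CPM in NRF1 libraries and 46.7, 50.3 and 48.1 CPM in NRF2 libraries, against 7.79, 6.76 and 9.98 CPM in NRF3 libraries and 7.20, 8.35 and 6.56 CPM in empty vector libraries, and NRF1 alone had -0.07 against the other 6 libraries. SRXN1, the sulfiredoxin, SLC7A11, the cystine importer, and TRIM16L had pooled values of 1.63 ± 0.08, 1.66 ± 0.13 and 1.60 ± 0.08, and NRF2 minus NRF1 of 2.95, 2.92 and 2.84. OSGIN1, an oxidative stress-induced growth inhibitor, was 65.1, 55.9 and 62.7 CPM in NRF2 libraries and 0.218 to 1.02 CPM in the other 9. F2RL2, a thrombin receptor, was 15.0 to 19.6 CPM in NRF2 libraries and at most 0.290 CPM elsewhere, and its pooled call was lost without NRF1 replicate 2. UGDH, FTH1 and TKT, for glucuronate synthesis, the ferritin heavy chain and transketolase, were with HMOX1, GCLM and SQSTM1 the 6 without overlap, with pooled values of 0.52, 0.54 and 0.27. FTH1 was 275, 298 and 292 CPM with NRF1 and 404, 469 and 486 CPM with NRF2, against 266, 246 and 257 CPM with NRF3 and 236, 246 and 238 CPM with empty vector, so that NRF1 lay just above the other side and NRF2 far above it. Of 8 CNC factors and partners 4 were called higher, NFE2L2, whose reads include the transgene, KEAP1, MAFG (0.75) and BACH1 (0.42). The share was 50%, beside 4.86% over all genes. In this list 4 genes were higher with NRF2 than with NRF1, and the median was 0.53 for NRF2 and 0.09 for NRF1. BACH1, a repressor at AREs, was 25.7, 23.3 and 21.0 CPM in NRF1 libraries and 43.3, 42.2 and 37.5 CPM in NRF2 libraries, against 19.9, 25.7 and 22.6 CPM in NRF3 libraries and 24.0, 22.3 and 24.7 CPM in empty vector libraries, high in NRF2 libraries alone.

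Of 34 genes of ER folding and the unfolded protein response 15 were called higher and none lower, with a median of 0.17. The share called higher was 44.1%, beside 4.86% over all genes. SEC24D, a coat protein of ER exit vesicles, was 63.0, 66.2 and 70.7 CPM with NRF1 and 85.2, 84.3 and 80.8 CPM with NRF2, against 55.9, 65.9 and 56.3 CPM with NRF3 and 53.1, 46.1 and 54.1 CPM with empty vector, and SEC61A1, the core of the ER translocon, and DNAJB11, an ER chaperone, had 0.37 ± 0.06 and 0.32 ± 0.05. None of the 34 was free of overlap between the sides. Over all genes 1.45% lay wholly above and 2.66% wholly below, so a list of this size can hold none. In this list 5 genes were higher with NRF2 than with NRF1, and the median was 0.26 for NRF2 and 0.07 for NRF1. Against the empty vector mean the list medians were 0.08, 0.11 and 0.19 in NRF1 libraries and 0.09, 0.14 and 0.13 in NRF3 libraries, so that NRF1 and NRF3 overlapped. In the ATF4 and amino acid list 9 of 33 were called higher (27.3%) and 2 lower (6.06%, beside 7.14% over all genes), with a median of 0.13. Those higher included the amino acid carriers SLC7A11, SLC7A5 (0.47), SLC3A2 (0.41 ± 0.06) and SLC1A5 (0.30 ± 0.06), the transfer RNA synthetases GARS and WARS (both 0.17) and ALDH18A1 of proline synthesis (0.18), and those lower were DDIT4 (-0.51) and SLC38A2 (-0.17). Of 28 cytosolic chaperones and chaperonin subunits 5 were higher (17.9%) and 2 lower (7.14%, as over all genes). DNAJA1, a cochaperone of HSP70, was 572, 609.5 and 589 CPM in NRF1 libraries and 597, 639 and 625 CPM in NRF2 libraries, against 512, 517 and 503 CPM in NRF3 libraries and 468, 463 and 470.4 CPM in empty vector libraries, with 0.31 ± 0.04. BAG3 had 0.34 ± 0.07, and DNAJB4 had 0.42 ± 0.09 from NRF2 libraries (31.7 to 36.5 CPM, against 16.6 to 18.0 CPM in NRF1 libraries). The genes called lower were HSPA1A and HSPA1B (-0.33 and -0.32), which are nearly identical in sequence, so their reads cannot be assigned to either with certainty. Of 36 proteasome subunits 3 were called higher, PSMD11 (0.25 ± 0.06), PSMC5 (0.22 ± 0.05) and PSMD12 (0.17 ± 0.04), none was lower, and the median was 0.04, with 0.06 for NRF2 and -0.0047 for NRF1. The share of subunits called higher was 8.33%, beside 4.86% over all genes. The call of PSMD12 was lost in 4 of the 12 fits without 1 library.

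Structural genes moved in both directions. The share called higher was 28.6% for tubulins. It was 14.3% in each direction for actin cytoskeleton and keratin genes, beside 4.86% higher and 7.14% lower over all genes. Of 14 tubulins 4 were called higher and none lower. TUBB6 was 104, 116 and 122.7 CPM with NRF1 and 95.3, 97.4 and 96.0 CPM with NRF2, against 85.9, 79.3 and 84.6 CPM with NRF3 and 77.7, 77.4 and 74.9 CPM with empty vector, and here the higher values were those of NRF1 (NRF2 minus NRF1 -0.25, 95% interval -0.39 to -0.10, adjusted p = 0.131, edgeR). TUBA4A had 0.47 ± 0.08 and TUBB2A had 0.22 ± 0.05. Of 14 actin cytoskeleton and keratin genes 2 were higher, CNN2 and KRT8, and 2 lower, VIM (-0.28 ± 0.06) and TPM2 (-0.44 ± 0.09). NEFM and NEFL, the neurofilament subunits expressed in this line, had 0.73 ± 0.11 and 0.29 ± 0.05. NEFM was 146, 182 and 182 CPM in NRF1 libraries and 236, 216 and 234 CPM in NRF2 libraries, against 127, 158 and 87.5 CPM in NRF3 libraries and 106, 112 and 121 CPM in empty vector libraries, so that NRF3 replicate 2 (158 CPM) exceeded NRF1 replicate 1.

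Other lists had few calls in number, but their shares lay on both sides of those over all genes (4.86% higher and 7.14% lower). The share called lower was 9.09% for histones, 3.03% for replication and mitosis genes and 4.17% for cholesterol genes. The share called higher was 2.7% for nucleolar genes and 4.17% for cholesterol genes. For p53 targets the shares were 13.04% higher and 8.696% lower, both above those of all genes. Of 22 replication-dependent histones 2 were lower, HIST3H2A (-0.68 ± 0.10) and HIST1H1C (-0.40 ± 0.12), of 33 DNA replication and mitosis genes 1 was lower, AURKB (-0.16 ± 0.05), and of 37 nucleolar ribosome biogenesis genes 1 was higher, GAR1 (0.28 ± 0.07). Of 24 cholesterol synthesis genes DHCR7 was higher (0.31 ± 0.06) and TM7SF2 lower (-0.26 ± 0.07). Of 23 p53 targets 3 were higher and 2 lower, with CDKN1A (0.36 ± 0.07) and TNFRSF10B (0.18 ± 0.04) higher and DDB2 (-0.31 ± 0.06) and PMAIP1 (-0.38) lower. DDB2 was 21.7 to 26.6 CPM in the 9 libraries with a factor, NRF3 included, against 33.9 to 35.3 CPM with empty vector. The calls of AURKB, HIST1H1C and TM7SF2 were each lost in 9 of the 12 fits without 1 library, and that of GAR1 without NRF1 replicate 2 or NRF1 replicate 3.

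**Figure D3:**
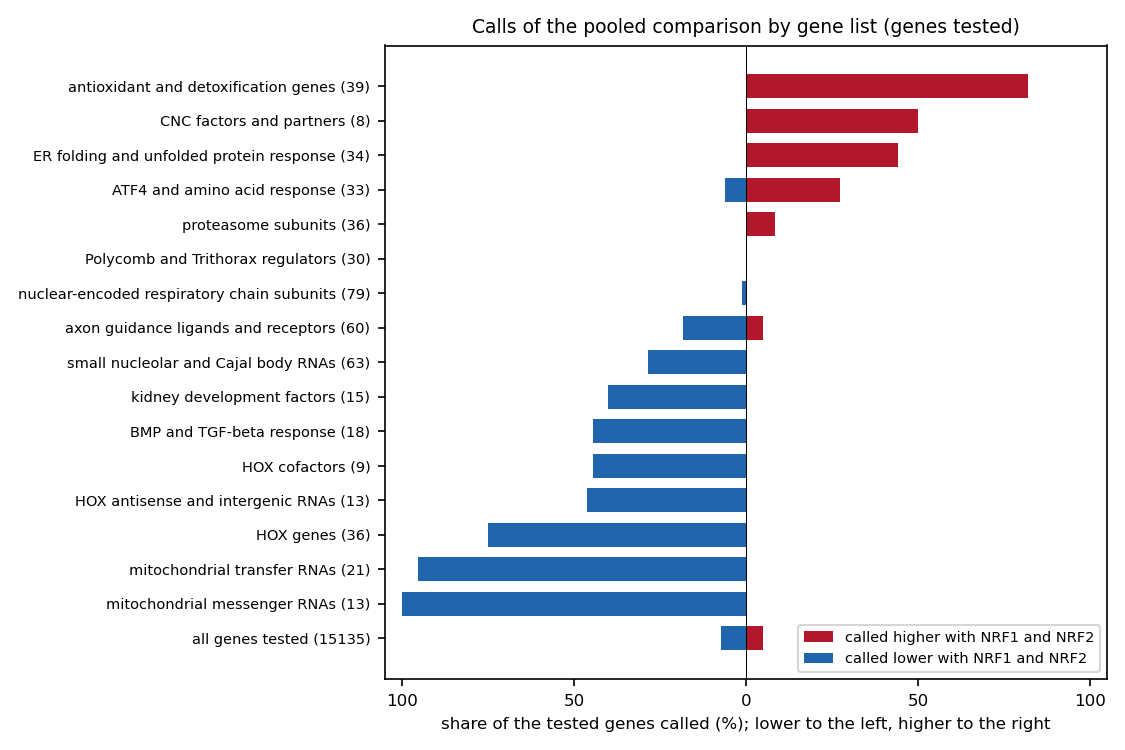
Share of the tested genes of each list (%, x axis) called higher (to the right) or lower (to the left) with NRF1 and NRF2 in the pooled comparison, with the number tested in brackets. The mitochondrial lists are at 95.2% to 100% lower, HOX genes at 75.0% lower and antioxidant genes at 82.1% higher, beside 4.86% higher and 7.14% lower over all genes.

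In the fit of 4 groups, which share an estimate of spread, the single comparisons that make up the pooled contrast were of very unequal size. NRF2 gave 709 genes higher (4.68% of all tested) and 879 lower (5.81%) against empty vector, and 366 higher (2.42%) and 416 lower (2.75%) against NRF3. NRF1 gave 36 higher (0.238%) and 229 lower (1.51%) against empty vector, and 7 higher (0.0463%) and 53 lower (0.35%) against NRF3. Without NRF3 replicate 2, NRF2 gave 1057 higher and 1212 lower against empty vector and 1588 and 1498 against NRF3, and NRF1 gave 160 and 429 against empty vector and 705 and 641 against NRF3. The lowest counts over the 12 fits were 334 higher (without empty vector replicate 2) and 454 lower (without empty vector replicate 3) for NRF2 against empty vector, and 191 and 163 (both without NRF3 replicate 1) for NRF2 against NRF3. For NRF1 they were 7 higher (without empty vector replicate 1) and 26 lower (without NRF1 replicate 3) against empty vector, and 0 and 4 (both without NRF1 replicate 2) against NRF3. Genes called the same way in all 4 numbered 4 higher (0.0264% of all tested) and 35 lower (0.231%). The 4 were HMOX1, LINC00346, MIR4435-2HG and CNN2. The 35 included the mitochondrial COX1, COX2, CYTB, ND1, ND2, ND5, RNR1, RNR2, TRNL2, TRNN and TRNY, the HOX region genes HOXB6, HOXC9, HOXD9 and HOXB-AS3, and ID2, SMAD6, SEMA3C, NRP1, EPHA7, FLRT3, HES1, RGS2, TSC22D3, MAF and CDKN2C. Of these, HES1, RGS2, TSC22D3, MAF and CDKN2C are described after their values were seen. TSC22D3, a glucocorticoid-induced leucine zipper gene, was 42.3, 40.4 and 38.5 CPM in NRF1 libraries and 43.0, 38.4 and 42.8 CPM in NRF2 libraries, against 64.7, 63.6 and 67.3 CPM in NRF3 libraries and 57.6, 57.9 and 59.0 CPM in empty vector libraries. RGS2, a regulator of G protein signalling, was 8.72 to 13.5 CPM on the NRF1 and NRF2 side and 18.5 to 27.6 CPM on the other. HES1, a Notch target, was 26.1 to 34.4 CPM with NRF1 or NRF2, against 41.6 to 50.7 CPM with NRF3 or empty vector. The number called in all 4 depended on single libraries. It was 36 higher and 168 lower without NRF3 replicate 2, 0 higher and 2 lower without NRF1 replicate 2 or without NRF1 replicate 3, 2 higher and 3 lower without NRF3 replicate 1, and 1 higher and 7 or 8 lower without any 1 of the empty vector libraries.

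Because each single comparison shares a group with 2 others, the factors were set side by side in pairs with no library in common. NRF1 against empty vector and NRF2 against NRF3 called 12 genes higher in both, which is 33.3% of the 36 called with NRF1 and 3.28% of the 366 called with NRF2. They called 135 lower in both, 59.0% of the 229 and 32.5% of the 416, and none in opposite directions. Across 11726 genes that averaged 50 counts or more, the fold changes of these comparisons had r = 0.48, and across all 15135 genes r = 0.38 (a description, since genes are not independent and the libraries share scaling and the estimate of spread). NRF1 against NRF3 and NRF2 against empty vector called 5 genes higher and 40 lower in both (71.4% of 7 and 75.5% of 53 called with NRF1, 0.705% of 709 and 4.55% of 879 called with NRF2), with r = 0.46 across the 11726 genes. When each comparison was fitted on its own 6 libraries, the first pair called 32 higher and 120 lower in both, and the second pair 0 higher and 1 lower, with 1 gene in opposite directions in each pair. Those fits called 945 and 1028 genes for NRF1 against empty vector but 1 and 4 for NRF1 against NRF3, whose libraries had the widest spread. Without 1 library, the genes lower in both ranged from 20 to 262 in the first pair and from 2 to 258 in the second, both highest without NRF3 replicate 2.

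**Figure D4:**
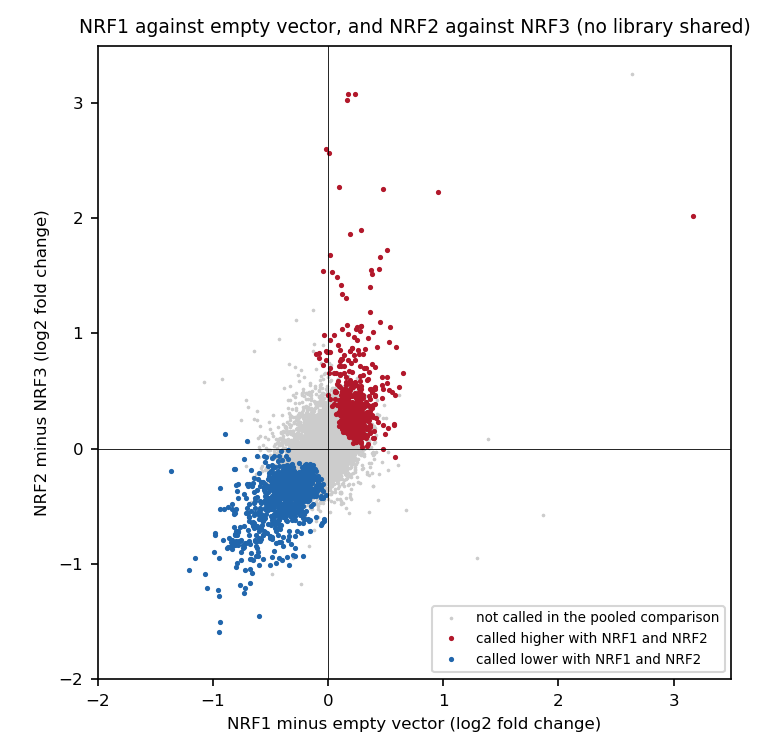
Log2 fold changes of NRF1 minus empty vector (x axis) and of NRF2 minus NRF3 (y axis) for 11726 genes that averaged 50 counts or more, with 6 genes outside the axes. Colours mark the pooled calls, which use the same libraries. Genes called lower lie along the diagonal below 0, and genes called higher extend upward, where NRF2 moved further than NRF1.

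The second pair held 2 genes with opposite calls, named here with IQCJ-SCHIP1 after their values were seen. HSPA6, an inducible HSP70, was 0.654 to 0.942 CPM in NRF1 libraries and 1.54 to 1.94 CPM in NRF2 libraries, against 4.54 to 5.60 CPM in NRF3 libraries and 0.295 to 0.952 CPM in empty vector libraries. It was highest with NRF3. LBH was 1.81 to 2.54 CPM in NRF1 libraries and 6.21 to 6.26 CPM in NRF2 libraries, against 3.86 to 5.82 CPM in NRF3 libraries and 2.29 to 3.15 CPM in empty vector libraries, with NRF2 minus NRF1 at 1.48 (adjusted p = 0.000163, edgeR). IQCJ-SCHIP1 was called lower in the pooled comparison from NRF1 alone, at 3.49 to 3.92 CPM in NRF1 libraries, against 7.95 to 9.14 CPM in NRF2 libraries and 8.58 to 10.7 CPM in the other 6.

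Within the reference side, NRF3 minus empty vector, whose few calls were a reason for the pooling, called 4 genes (0.0264% of all tested), HMOX1, GCLM and HSPA6 higher and GH2 lower. Without NRF3 replicate 2 it called 5 higher and 1 lower. At an unadjusted p under 0.05 there were 622. GH2 had at most 1 count in any of the 9 libraries with a factor, against 69, 89 and 62 counts with empty vector, and it was not called in the pooled comparison. When the mean of NRF1 and NRF2 was set against empty vector alone, 482 genes were called higher and 864 lower, and against NRF3 alone 156 higher and 313 lower.

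**Figure D5:**
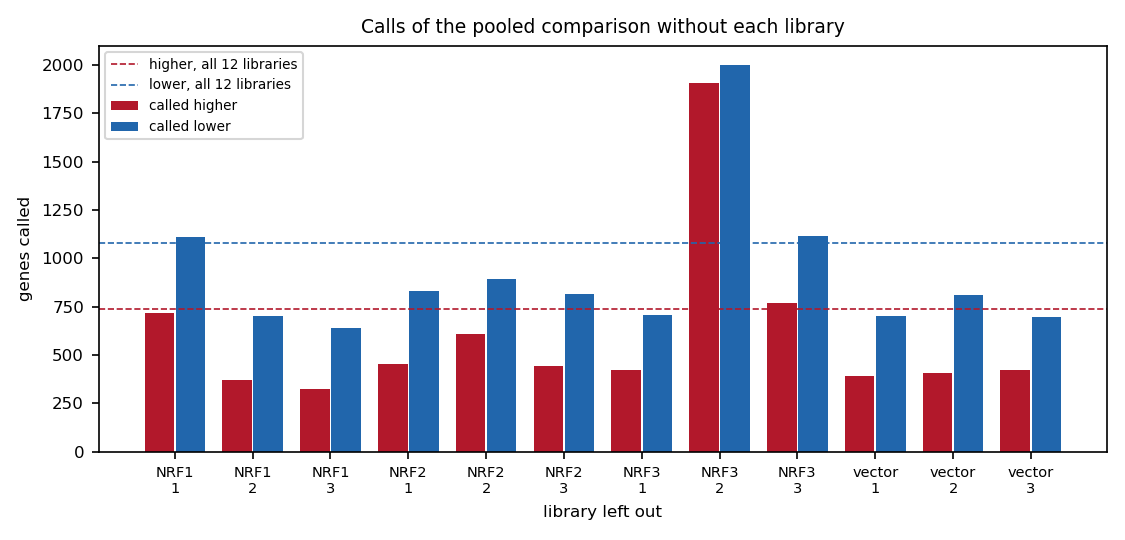
Number of genes called higher and lower in the pooled comparison (y axis) when each library is left out in turn (x axis), with the counts from all 12 libraries as dashed lines at 736 and 1081. Leaving out NRF3 replicate 2 gives 1905 and 2000, and the other 11 fits give 326 to 768 higher and 639 to 1117 lower.

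Over the 12 fits without 1 library the mitochondrial messenger RNAs gave 13 calls lower in each, the HOX genes 25 to 27, the BMP and TGF-beta list 7 to 9 and the antioxidant list 30 to 33 higher. The small nucleolar list gave 12 to 29, and all calls ranged from 326 to 1905 higher and from 639 to 2000 lower. Transcript length and pooled fold change had r = 0.13 over 11032 genes, and within the reference side length and NRF3 minus empty vector had r = -0.20 (across genes, a description). The pooled fold change had medians of -0.04, 0.02 and 0.04 for short, middle and long genes in bins of equal size, of which 7.38%, 6.51% and 5.84% were called lower and 4.27%, 6.78% and 4.95% higher.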

How the data were processed

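RNA from 12 HEK293T libraries in 4 groups of 3 was sequenced at BGI, and reads were assigned to GRCh37.p13 genes with DNASTAR Lasergene. The authors deposited estimated counts per gene (38019 genes), in which 45.8% of values are 0.009, the entry for no read, and 5.96% of values of at least 0.5 are not whole. The sources used here do not give the Lasergene version or whether counting used the strand. Counts were rounded, and genes were kept by edgeR's filter with a minimum count of 10 (15135 genes). Scaling was by TMM, and the test was edgeR's robust quasi-likelihood test (edgeR 4.0.16, R 4.3.3) with 4 groups and Benjamini-Hochberg adjustment. DESeq2 1.42.0 and limma 3.58.1 (voom) were alternatives, as were other scalings, filters, reference or tested groups, a replicate block, an unequal variance test and fits without 1 library. CPM are scaled by TMM.

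The members of the comparison and the 29 gene lists were chosen with earlier results of these data known. Genes named by rule were the 12 highest and 12 lowest fold changes among called genes without overlap that averaged 50 counts or more (transfected genes left out), at most 3 called genes per list by adjusted p, 8 fixed genes, the 6 called genes with the largest NRF2 minus NRF1 difference, and the 8 highest and 8 lowest called in all 4 single comparisons. Other genes with values in the text were chosen after their values were seen. The fit was tested on simulated data. The labels name a vector control where the table names vehicle columns, which were taken to be the same libraries. Promoter windows came from RefSeq. Depth limits low genes, such as small nucleolar RNAs. Figures were drawn with matplotlib 3.10.9.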

Additional observations from a re-analysis of the deposited data

Results flagged for a closer look

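In 32 of the 113 genes chosen by rule the effects of NRF1 and NRF2 differed by the test of the difference itself, NRF2 minus NRF1 in edgeR's quasi-likelihood fit with an adjusted p under 0.05. Over all genes tested the share was 1.25%. Of the 32, F2RL2, OSGIN1, SRXN1, SLC7A11, TRIM16L and NFE2L2 had been picked for the size of this same difference. The count therefore follows in part from how the genes were chosen and cannot be set against 1.25%. Groups of 3 libraries were not tested for single values that stand apart. In 26 of the 32 genes NRF2 was higher, and the values below are log2 fold changes of NRF2 minus NRF1.

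Among genes of the ARE list and its regulators the difference was 6.24 for OSGIN1, 2.95 for SRXN1, 2.92 for SLC7A11, 2.84 for TRIM16L, 2.71 for NQO1, 2.16 for TXNRD1, 1.87 for GCLM, 1.32 for HMOX1, 1.14 for SQSTM1, 0.814 for BACH1 and 0.721 for KEAP1. NFE2L2, at 6.74, includes reads of the NRF2 transgene. The value of 7.31 for F2RL2 depends on the prior count, since 2 of its 3 NRF1 libraries had no count.

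Further genes higher with NRF2 were LINC00346 at 1.62, FOSL1 at 1.63, MIR4435-2HG at 1.56, HTRA3 at 1.47, LINC00152 at 1.24, NR0B1 at 1.04, DNAJB4 at 0.966, GPX3 at 0.794, TUBA4A at 0.665, GPAT3 at 0.644, ALAS1 at 0.603, SLC3A2 at 0.474 and DNAJB11 at 0.296.

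In 6 of the 32 genes NRF2 was lower than NRF1, with -0.95 for LOC101928230, -0.613 for HOXD9, -0.546 for LGR5, -0.543 for FOXC1, -0.464 for HOXA10 and -0.372 for SMAD6.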

How the results depend on the processing

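DESeq2 size factors and upper quartile scaling kept all 113 genes chosen by rule on their side of the threshold, and DESeq2 lost none. The unequal variance test of 6 against 6 libraries lost 45, NRF1 alone 53, NRF3 alone as reference 24, 2 arms in place of 4 groups 12, and empty vector alone as reference 8. With NRF1 alone, DNAJB4 (-0.068) and NQO1 (-0.067) reversed. The cause of these changes was not tested. Leaving out NRF3 replicates 2 and 3 together, and the list of mitochondrial transfer and ribosomal RNAs, were chosen after seeing the data.

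The replicate number is not described as a shared batch, and in 18 same-numbered pairs the correlations of deviations from the group means were -0.460 to 0.146, with no library closest to its own number. With the replicate block the pooled comparison gave 454 higher and 840 lower, and 4 of 113 genes lost their call. Genes called in all 4 single comparisons numbered 2 higher and 3 lower under the replicate block, and NRF1 minus NRF3 with NRF2 minus empty vector gave 2 higher and 3 lower.

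The 736 genes higher became 1339 without NRF3 replicates 2 and 3, 2099 with limma voom with quality weights (voom below), 272 with the unequal variance test, 482 against empty vector alone, 156 against NRF3 alone and 36 for NRF1 alone. The 1081 lower became 2149 with voom, 487 with the unequal variance test, 313 against NRF3 alone and 226 for NRF1 alone. The fits without 1 library gave 326 to 1905 higher and 639 to 2000 lower.

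For NRF2 minus NRF1, the 158 higher became 239 with every gene of at least 1 count tested, 338 without NRF3 replicates 2 and 3 and 382 with voom, and 117 to 263 without 1 library. The 31 lower became 55, 157 and 186 under these settings and 47 with DESeq2, and 15 to 68 without 1 library. For NRF3 minus empty vector, the 3 higher became 5 with DESeq2, and 2 to 5 without 1 library. The 1 lower became 2 with every gene of at least 1 count, 0 with a mean count of at least 50, 3 without NRF3 replicates 2 and 3, 3 with DESeq2 and 2 with voom, and 1 to 2 without 1 library.

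The 35 genes lower in all 4 single comparisons became 19 with library totals, 68 with every gene of at least 1 count, 99 without NRF3 replicates 2 and 3, 73 with DESeq2 and 336 with voom, and 2 to 168 without 1 library. The 4 higher became 15 without NRF3 replicates 2 and 3 and 96 with voom, and 0 to 36 without 1 library.

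For NRF1 minus empty vector with NRF2 minus NRF3, the 12 higher became 22 with every gene of at least 1 count, 96 without NRF3 replicates 2 and 3, 34 with DESeq2, 282 with voom and 32 with separate fits, and 5 to 68 without 1 library. The 135 lower became 294 without NRF3 replicates 2 and 3 and 542 with voom, and 20 to 262 without 1 library. For NRF1 minus NRF3 with NRF2 minus empty vector, the 5 higher became 8 with every gene of at least 1 count, 25 without NRF3 replicates 2 and 3, 8 with DESeq2, 148 with voom and 0 with separate fits, and 0 to 155 without 1 library. The 40 lower became 21 with library totals, 79 with every gene of at least 1 count, 113 without NRF3 replicates 2 and 3, 83 with DESeq2, 394 with voom and 1 with separate fits, and 2 to 258 without 1 library.

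The 32 antioxidant genes higher became 12 with 2 arms, 1 with the unequal variance test and 2 for NRF1 alone. The 27 HOX genes lower became 16 with the unequal variance test and 13 for NRF1 alone. The 18 small nucleolar RNAs lower became 29 with every gene of at least 1 count, 1 with a mean count of at least 50, 32 with voom, 8 with the unequal variance test, 6 against NRF3 alone and 3 for NRF1 alone, and 12 to 29 without 1 library. The mitochondrial messenger RNAs and the BMP list stayed within 1.5 times their counts in every setting run.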

Other observations

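Among the 35 genes called lower in each of the 4 single comparisons were the following 5 genes, picked after their values were seen. MAF, a large MAF transcription factor and not 1 of the small MAF partners, was 35.3, 34.8 and 34.7 CPM with NRF1 and 33.3, 34.5 and 33.7 CPM with NRF2, against 45.2, 49.2 and 43.3 CPM with NRF3 and 46.5, 48.8 and 53.4 CPM with empty vector, with a pooled log2 fold change of -0.47 ± 0.05. FENDRR, a long noncoding RNA of mesoderm, was 6.31, 5.52 and 5.82 CPM in NRF1 libraries and 5.88, 5.76 and 5.93 CPM in NRF2 libraries, against 9.37, 9.24 and 8.47 CPM in NRF3 libraries and 8.45, 9.30 and 8.33 CPM in empty vector libraries, with -0.59 ± 0.08. CDKN2C, an inhibitor of CDK4 and CDK6, was 52.1, 49.7 and 46.3 CPM with NRF1 and 46.4, 46.4 and 43.9 CPM with NRF2, against 70.2, 58.8 and 68.9 CPM with NRF3 and 66.7, 66.7 and 64.7 CPM with empty vector, with -0.48 ± 0.06, and PNRC1, a nuclear receptor coactivator, had -0.52 ± 0.05. LRIG3, a membrane protein, had -0.45 ± 0.05. The libraries of the sides did not overlap for any of these 5 genes. RXRG and VDR, nuclear receptors that pair with each other's families, were called higher, with 0.61 ± 0.14 and 0.44 ± 0.12. RXRG was 3.62, 3.92 and 4.43 CPM in NRF1 libraries and 4.90, 3.67 and 4.05 CPM in NRF2 libraries, against 2.34, 2.76 and 3.17 CPM in NRF3 libraries and 2.94, 2.93 and 1.99 CPM in empty vector libraries.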
